A study of Homo sapiens with 8 samples.

Results

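The histone genes of human embryonic stem cells on soft and stiff gels are described here. Members were all single gene symbols of the HIST1H, HIST2H, HIST3H and HIST4H series, PS pseudogenes left out, plus 8 named variant genes. The rule used names only, and no measured value. It found 70 genes, of which 67 had a row among the 33575 rows of the day 0 table and 69 among the 34690 rows of the day 3.5 table. There were 63 replication-dependent genes (6 H1, 12 H2A, 19 H2B, 11 H3 and 15 H4) and 7 variant genes. H1F0, the eighth variant gene of the rule, occurred only in a row merged with GCAT. The annotation calls 3 members pseudogenes (HIST2H2BA, HIST2H3DP1 and HIST3H2BA).

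The cells were H9, an established line of human embryonic stem cells, kept in feeder-conditioned medium on gels of 400 Pa (soft) or 60 kPa (stiff). Undifferentiated cells (day 0) and cells 3.5 days into induction with bFGF, Activin, VEGF and BMP4 (day 3.5) were sequenced, with 2 libraries in each of the 4 groups. No label ties the paired libraries of a group to different cultures. The p-values thus cover library-to-library spread alone, and that spread could be purely technical. The authors' tables hold 1 FPKM (fragments scaled by transcript length and by library total) per gene and group, so no replicate spread could be computed and sequencing depth is unknown.

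Histones are the proteins around which DNA is wound. H2A, H2B, H3 and H4 form the core of the nucleosome, and H1 binds the DNA that links nucleosomes. Replication-dependent histone genes lie in clusters, mostly have no intron, and are transcribed when DNA is copied in S phase. Their mRNAs end in a conserved stem-loop instead of a poly-A tail, whereas variant histone genes make polyadenylated mRNA throughout the cell cycle and place their proteins at particular regions or times. Libraries made from poly-A RNA therefore hold replication-dependent histone mRNA mainly where it is polyadenylated, and libraries of total RNA hold both forms.

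The labels give total RNA as the material and do not say whether poly-A RNA was selected, so it cannot be told which form of the histone mRNAs these values count, and this limits the reading of every level and difference below. As a measured fact, RMRP, a structural RNA with no poly-A tail, had FPKM values of 283025 (day 0, soft), 293869 (day 0, stiff), 353883 (day 3.5, soft) and 349428 (day 3.5, stiff). The 10 rows with the highest FPKM held 44.9% to 52.1% of the summed FPKM of a group. The labelled cell type was checked by markers. The summed FPKM of 7 pluripotency genes was 1904 on soft and 2035 on stiff gels at day 0, and 526 and 848 at day 3.5. The summed FPKM of 7 mesoderm genes was 10.1 and 14.5 at day 0, and 157 and 48.7 at day 3.5, with KDR carrying most of it at day 0 (9.07 and 13.5). For 5 fibroblast genes, which feeder cells would also express, the sums were 145 and 199 at day 0, and 236 and 60.0 at day 3.5. THY1, which stem cells also express, made up most of the day 0 sum (135 and 191), while DCN, LUM and COL3A1 were at 0.0977 FPKM or below. At day 3.5 all 7 mesoderm genes were higher on soft gels, and 2 of them and 3 of the 5 fibroblast genes (LUM, DCN and COL3A1) passed the authors' test in that direction (q below 0.05 in the authors' deposited table). THY1 (25.5 and 26.8) and COL1A2 (18.2 and 24.2) had higher values on stiff gels. The part of these cells in the histone values was not tested. In such bulk samples, fewer cells of a type and less RNA per cell cannot be told apart.

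The stem-loop is the feature by which replication-dependent histone mRNAs differ from other mRNAs, so it was looked up in the transcripts of GENCODE release 29. The pattern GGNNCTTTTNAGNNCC, 16 letters read on the transcript strand, occurred in 80 of 57133 genes (0.140%). It was found in 28 of the 63 replication-dependent members. A further 28 members have models that hold the coding part alone, and none of these shows the pattern. Sequences of the main forms are printed 5′ to 3′ with the stem-loop in capitals and the flanking bases in lower case. The first serves 14 members (4 H2A, 8 H2B and 2 H3), the second 5 members (3 H2B and 2 H3), the third 5 H4 members and the fourth 3 H4 members. The form of HIST1H2AG was found in that gene alone among the members, and the last line is from the variant gene H2AFX.
HIST1H2BH: cccaaaGGCTCTTTTCAGAGCCactta
HIST1H2BF: cccaaaGGCTCTTTTAAGAGCCaccca
HIST1H4B: tccaatGGCCCTTTTCAGGGCCgccca
HIST1H4I: taaaaaGGCCCTTTTTAGGGCCcctaa
HIST1H2AG: accaacGGCTCTTTTCAGGGCCaccca
H2AFX: cacaaaGGCCCTTTTAAGGGCCaccac
The forms found in H4 members were found in no H2A, H2B or H3 member. H2AFX, whose mRNA is known to be made in both forms, was the single variant gene of 7 with the pattern. In 17 replication-dependent members the annotated transcript runs on for more than 100 bases past the stem-loop, and in 5 it ends within 20 bases. Of the 70 members, 63 have a single exon in the annotated transcript used.

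Promoters were taken from RefSeq (GRCh38.p14), which gave a window from 250 bases before to 50 bases after the start for 63 of the 70 members. The octamer ATGCAAAT, searched on both strands, occurred in 13 of 17 H2B and 8 of 11 H2A windows, in 1 of 7 variant windows (H3F3B), and in none of the 6 H1, 9 H3 and 13 H4 windows. Among all 35116 promoter windows 1.77% held it. CCAAT, on either strand, occurred in every H1, H2A, H2B and H3 window, in 3 of 13 H4 windows and in 34.6% of all windows. TATAAA, on either strand, occurred in 3 of 6 H1, 8 of 11 H2A, 12 of 17 H2B, 7 of 9 H3 and 7 of 13 H4 windows, against 11.5% of all windows. A match could lie anywhere in the window, so these are not counts of promoters with TATAAA near the start. In HIST1H2BM, for example, the match is on the reverse strand and far from the start. In 7 of the 13 H2B windows the first base of the octamer lay 45 to 49 bases before the start. The H2A and H2B counts are not independent, because in 5 pairs of head-to-head H2A and H2B genes both windows, which overlap, hold the octamer. The 250 bases before the start are printed for 3 members whose stiffness values are given below, none of which passed the authors' test. Matches to these 3 motifs on either strand are in capitals. HIST1H2BH lies at chr6:26251364-26251613 (plus strand), HIST1H2BM at chr6:27814772-27815021 (plus strand) and HIST1H4L at chr6:27873535-27873784 (minus strand).
HIST1H2BH: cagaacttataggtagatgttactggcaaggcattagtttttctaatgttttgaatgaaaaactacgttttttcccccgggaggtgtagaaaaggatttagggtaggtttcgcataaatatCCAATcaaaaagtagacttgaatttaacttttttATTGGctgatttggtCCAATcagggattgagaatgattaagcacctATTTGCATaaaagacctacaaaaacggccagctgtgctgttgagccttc
HIST1H2BM: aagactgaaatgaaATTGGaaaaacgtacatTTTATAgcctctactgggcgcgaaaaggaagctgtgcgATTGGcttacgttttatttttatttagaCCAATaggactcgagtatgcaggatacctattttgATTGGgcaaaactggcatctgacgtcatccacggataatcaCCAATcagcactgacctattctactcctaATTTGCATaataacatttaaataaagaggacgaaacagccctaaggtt
HIST1H4L: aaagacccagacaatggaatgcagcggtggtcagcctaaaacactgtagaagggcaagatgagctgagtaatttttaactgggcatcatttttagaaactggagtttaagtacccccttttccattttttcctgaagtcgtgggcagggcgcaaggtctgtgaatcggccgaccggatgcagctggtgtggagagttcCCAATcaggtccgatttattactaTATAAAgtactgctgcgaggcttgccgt
Both H2B promoters carry the octamer in its reverse orientation, 49 and 48 bases before the start. The H4 promoter has no octamer in this window and has TATAAA 28 bases before the start. These matches are descriptions of the letters, not evidence of binding.

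On the FPKM scale, which divides by transcript length, most replication-dependent genes were abundant. The mean of both gels at day 0 was 1000 FPKM or more in 10 genes, between 100 and 1000 in 26, between 10 and 100 in 13, between 1 and 10 in 3, and below 1 in 8. At day 3.5 the same steps held 12, 27, 8, 6 and 9 genes. The highest member in each group was HIST1H4D, one of the many genes that encode the same H4 protein, at 2403 (soft) and 2082 (stiff) at day 0 and 2216 and 1986 at day 3.5. HIST1H4B, another H4 gene, followed at day 0 with 1510 and 1248, and had 1647 and 1333 at day 3.5. HIST1H1B and HIST1H1C, which encode linker histones, had 1275 and 1191 on soft gels at day 0. The other 4 of the 8 highest on each day were the H3 genes HIST1H3F and HIST1H3B, HIST1H2AH and HIST1H2BG. All classes of histone were thus represented near the top.

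Testis-type members were at the bottom of the range. HIST1H1T, HIST1H2AA, HIST1H2BA and HIST3H3, known as germ cell forms, had 0.109 to 6.90 FPKM at day 0 and 0 to 2.27 at day 3.5. Of the 8 variant genes, H2AFZ and H3F3B, which encode H2A.Z and the replacement histone H3.3, were the highest, at 627 and 595 on soft gels at day 0. H3F3A, the other H3.3 gene, was listed at 7.87 on soft and 7.62 on stiff gels at day 0. It shares 28.8% of the 50-base stretches of its transcript with other genes, most with H3F3AP4, so part of its reads could have been counted elsewhere. Several HIST2 genes, such as HIST2H2AA3, HIST2H3A, HIST2H3C and HIST2H4A, were listed below 0.5 in all groups in which they had a row. Those 4 share every stretch of 50 bases of their transcript with another gene, so their reads could have been counted under a copy. In total 11 members shared more than 50% of such stretches with another gene, and 33 shared none. All such shares are from GENCODE release 29 transcripts, which can differ from the gene models the authors counted. On each day 28 members shared their locus interval with another row, and 12 member symbols stood in 7 rows merged with other symbols, which were not counted as members. The merged row of HIST1H2AI and HIST1H3H, for example, had 1732 and 1642 at day 0 and 2344 and 1825 at day 3.5.

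**Figure D1:**
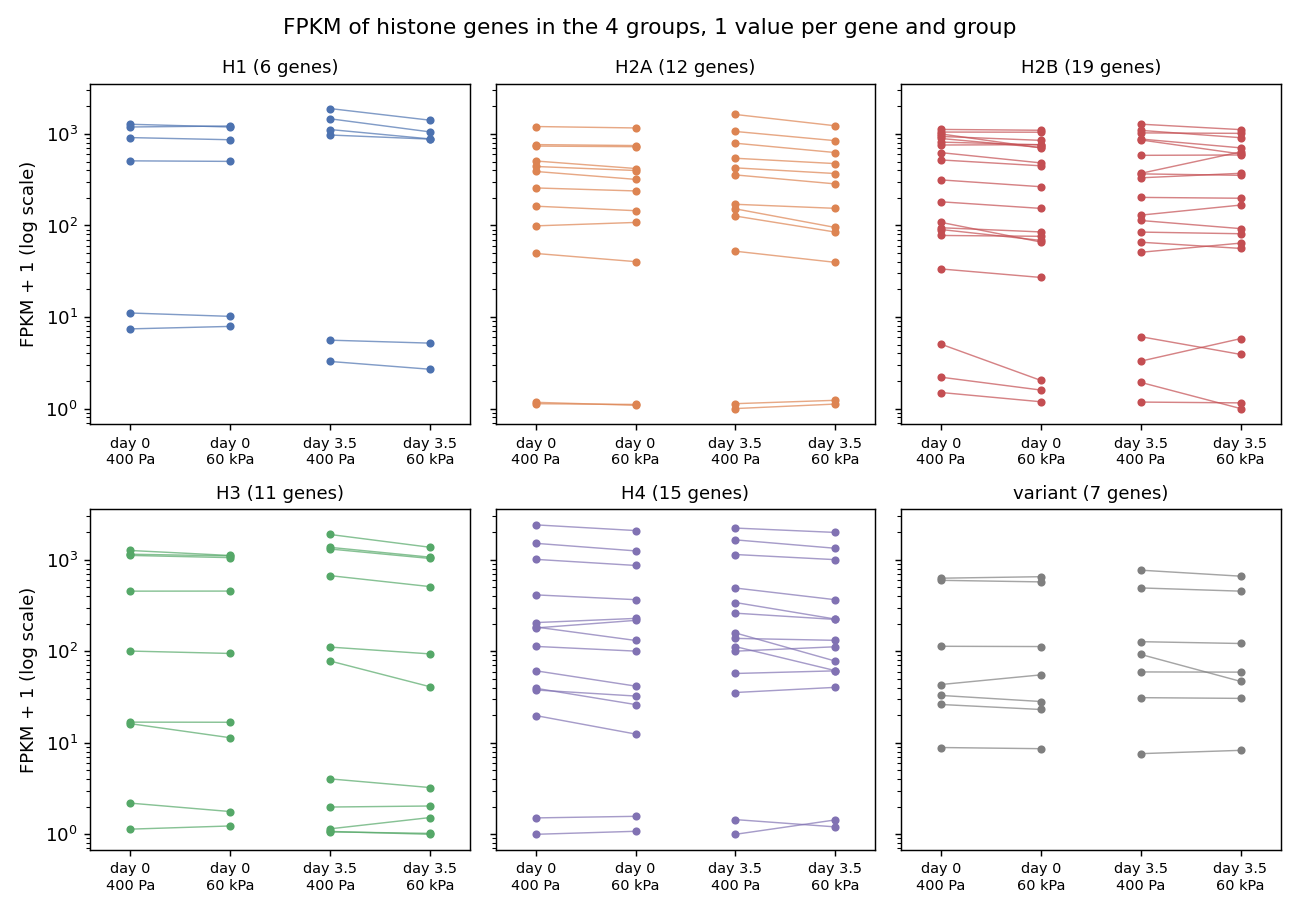
FPKM + 1 on a log scale for each histone gene (points) in the 4 groups, by class, with lines joining the soft (400 Pa) and stiff (60 kPa) value of 1 gene on 1 day. Each point is the authors' single value per group, so no error bar can be drawn, and levels span from below 1 to 2403 FPKM (HIST1H4D, soft gel at day 0).

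The first comparison asked how histone gene levels on soft gels differed from those on stiff gels in undifferentiated cells. Differences are given as log2((FPKM + 1) on soft / (FPKM + 1) on stiff), so positive values mean higher on soft, and genes needed an FPKM of 1 or more in a group. Of the replication-dependent genes, 54 met this and 6 did not. No member passed the authors' test (q below 0.05 in the authors' deposited table), where 24 of 17315 genes did (0.139%). At an unadjusted p below 0.05 in the authors' deposited table there was 1 member, against 1.86% of all genes. The median difference of the 54 genes was 0.17 (1.12-fold), beside 0.02 over all genes, and 47 of 54 were higher on soft, beside 53.9% of all genes. Of the 54, HIST2H3DP1 (H3) and HIST1H2BA (H2B) met the minimum through the soft value alone, which fixed their direction. With 1 FPKM asked for in both groups, 45 of 52 were higher on soft (median 0.16). A p that misses the threshold does not show that levels were equal.

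By class, the median difference at day 0 was 0.05 in H1 (4 of 6 genes higher on soft), 0.13 in H2A (9 of 10), 0.24 in H2B (17 of 18), 0.08 in H3 (7 of 8) and 0.22 in H4 (10 of 12). These class medians have no error of their own here, because the tables hold no values per library. For single members, the standard error implied by the authors' deposited ratio and test statistic had a median of 0.42. No member's difference exceeded 2 such errors on either day. These errors were larger than the authors' deposited p-values imply under a normal reading, so this result may only reflect their size. HIST1H2BH, an H2B gene at chr6:26251750-26253791 (hg19), was the 1 member with an unadjusted p below 0.05 in the authors' deposited table. It had 999.8 FPKM on soft and 703 on stiff gels, a difference of 0.51 with an implied error of 0.31 (p = 0.0215, q = 0.999829 in the authors' deposited table).

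Members with the largest differences toward soft at day 0 were mostly low. HIST3H2BA, an H2B pseudogene, had 4.05 and 1.03 FPKM, a difference of 1.32 (p = 0.0586 in the authors' deposited table). HIST3H2BB, an H2B gene of the small cluster on chromosome 1, had 107 and 65.0. HIST1H4F, HIST1H4L and HIST1H4A, all H4 genes, had 18.8 and 11.5, 38.4 and 25.2, and 60.2 and 40.6. Of the 54 replication-dependent genes, 7 were higher on stiff gels. HIST4H4, the H4 gene on chromosome 12, was farthest in that direction among them, with 179 on soft and 216 on stiff, a difference of -0.28. HIST1H4I followed with 205 and 227, and HIST1H2AG with 98.1 and 107. HIST1H4K, among the 3 lowest p at day 0, had 183 and 130, and HIST1H1T had 6.42 and 6.90. HIST1H4K shares all its 50-base stretches with HIST1H4J, so its level is uncertain.

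The same question was asked at day 3.5, after induction. Of the replication-dependent genes, 53 met the minimum and 9 did not. Again no member passed the authors' test, where 243 of 18225 genes did (1.33%). At an unadjusted p below 0.05 in the authors' deposited table there were 6 of 60 members, against 5.93% of all genes. The lowest q among the members was 0.395598 in the authors' deposited table. The median difference of the 53 genes was 0.27 (1.20-fold), beside 0.02 over all genes, and 43 were higher on soft, beside 51.9% of all genes. Summed over all replication-dependent members, FPKM was 30305 on soft and 25098 on stiff gels (ratio 1.21), compared with 27390.3 and 24864 at day 0 (ratio 1.10). That sum was 1.34% and 1.10% of all FPKM at day 3.5, and 1.38% and 1.31% at day 0.

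The H1 genes, which were close to even at day 0, were all 6 higher on soft at day 3.5, with a median of 0.31. All 10 H2A genes were higher on soft as well (median 0.34), as were 7 of 8 H3 genes (median 0.35) and 9 of 12 H4 genes (median 0.21). H2B genes had a median of 0.05, with 11 of 17 higher on soft. HIST1H3B, an H3 gene, had 1886 and 1367 FPKM, a difference of 0.46 with an implied error of 0.40. HIST1H1B had 1464 and 1053, and HIST1H1C, the gene of linker histone H1.2, had 1893 and 1413. HIST1H2AH had 1632 and 1228, and HIST1H3F had 1364 and 1066. None of these 5 abundant genes had a p below 0.05 in the authors' deposited table. The implied error was 0.40 for HIST1H3F and HIST1H1C, 0.43 for HIST1H1B and 0.64 for HIST1H2AH. The median implied error of all members at day 3.5 was 0.57.

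Of the 6 members with a p below 0.05, 5 were higher on soft. HIST1H4L, an H4 gene at chr6:27840926-27841289 (hg19), had 157.5 FPKM on soft and 77.1 on stiff gels, a difference of 1.02 with an implied error of 0.59 (p = 0.0120 in the authors' deposited table). HIST1H3I, the H3 gene next to it at chr6:27839623-27840099 (hg19), had 77.2 and 40.0, a difference of 0.93 (p = 0.0264 in the authors' deposited table). HIST1H4F, an H4 gene at chr6:26240561-26240976 (hg19), had 111 and 60.4, a difference of 0.87 (p = 0.0328 in the authors' deposited table). These genes were also the ones whose levels stood farthest above day 0, as given below. HIST1H2AG had 126 and 83.8, and the variant gene H2AFY had 91.4 and 45.9. HIST1H2BH was the exception in direction, with 370 FPKM on soft and 636 on stiff gels, a difference of -0.78 with an implied error of 0.46 (p = 0.0185, q = 0.511 in the authors' deposited table).

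Besides HIST1H2BH, 3 more H2B genes were among the 5 replication-dependent genes at the minimum that lay farthest toward stiff gels at day 3.5. HIST1H2BB had 2.30 and 4.81 FPKM, a difference of -0.82, HIST1H2BM had 129 and 166 (-0.37), and HIST1H2BN had 49.98 and 63.2 (-0.33). The fifth, HIST1H4J, is an H4 gene with 34.4 and 39.3. Its level is uncertain, as it shares 81.2% of its 50-base stretches with other genes, most with HIST1H4K. HIST1H2AK and HIST3H2BA were, besides HIST1H4L, HIST1H3I and HIST1H4F, the replication-dependent genes farthest toward soft gels, with 151 and 94.2, and 5.10 and 2.91. H2B differences at day 3.5 ran from -0.82 to 0.64 (the pseudogene HIST3H2BA), and the highest of a coding H2B gene was 0.51 (HIST1H2BJ).

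**Figure D2:**
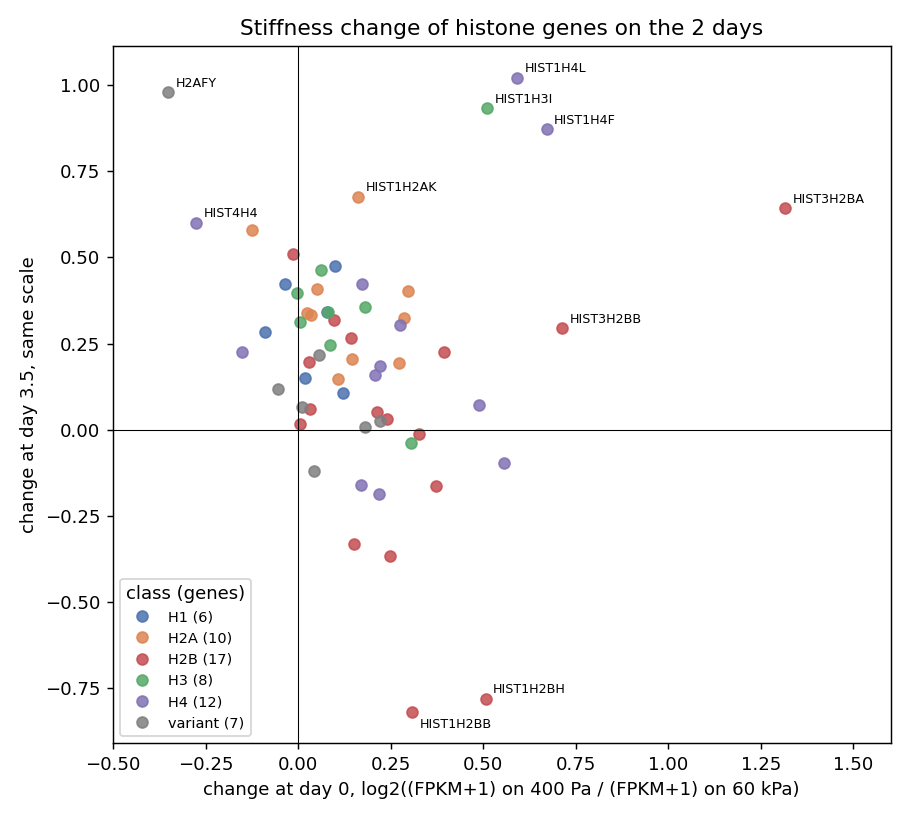
Stiffness difference of each histone gene at day 0 (horizontal axis) and day 3.5 (vertical axis), as log2((FPKM + 1) on 400 Pa / (FPKM + 1) on 60 kPa), coloured by class, for genes at 1 FPKM or more on both days. Most points lie right of and above 0, and HIST1H2BH and HIST1H2BB lie far below the horizontal line.

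The differences of the 2 days were set side by side. Over the 53 replication-dependent genes with both values, Pearson's r was 0.02 and Spearman's rho -0.21, as a description across genes that share libraries. Of these genes, 36 were higher on soft on both days, 10 were higher on soft at day 0 and on stiff at day 3.5, 7 were the reverse, and 0 were higher on stiff on both days. The 10 were 6 H2B, 3 H4 and 1 H3 gene. The correlations and these counts were not computed over all genes, so they cannot be read as particular to histone genes. The median implied errors of single members were 0.42 at day 0 and 0.57 at day 3.5. They hold for single genes and give no error for the median differences of 0.17 and 0.27. HIST1H2BH had the lowest p among the members for the difference between days, -1.29 with an error of 0.56 from the authors' deposited ratios and statistics (adjusted p = 0.999979, Benjamini-Hochberg over 14315 genes). No member passed that test at an adjusted p below 0.05, where 11 genes did (0.0768%). HIST1H2BH was the 1 member at an unadjusted p below 0.05, against 0.901% of all genes. The test is weak, and its errors are larger than the authors' deposited p-values imply under a normal reading. On simulated data for this comparison it recovered 2% of genes made to differ by 2 on the log2 scale. It recovered 39% of those made to differ by 4, with 4 false calls.

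H2A and H2B genes often lie head to head with a shared promoter stretch, so partners could be compared within a pair. Among the members 7 such pairs were found, with starts 194 to 248 bases apart in RefSeq, and 6 had both partners at 1 FPKM or more on both days. This set was chosen after the values had been seen, so no test was made. At day 0 the soft-to-stiff difference was above that of its H2B partner in 3 of 6 H2A genes, and no pair was opposite in sign. At day 3.5 it was above in all 6, by 0.07 to 1.01 (median 0.32), and 3 pairs were opposite in sign. HIST1H2AJ had 542 on soft and 474 on stiff gels at day 3.5 while its partner HIST1H2BM had 129 and 166. HIST1H2AC had 792 and 626 while HIST1H2BC had 331 and 371. HIST1H2AK had 151 and 94.2 while HIST1H2BN had 49.98 and 63.2. In each of these 3 pairs the H2A gene was higher on soft and the H2B gene higher on stiff. Both members of 3 of the 6 pairs, HIST1H2AC with HIST1H2BC, HIST1H2AK with HIST1H2BN and HIST3H2A with HIST3H2BB, were listed under the same locus interval, and HIST1H2AJ shares 83.7% of its 50-base stretches with another gene. The H2A and H2B genes were also split by the octamer. In H2B the median difference at day 3.5 was 0.06 in 12 H2B genes with it and 0.02 in 4 without, and at day 0 it was 0.25 in 13 and 0.20 in 4. In H2A it was 0.33 in 7 genes with the octamer and 0.54 in 2 without at day 3.5, and 0.11 and 0.23 at day 0.

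**Figure D3:**
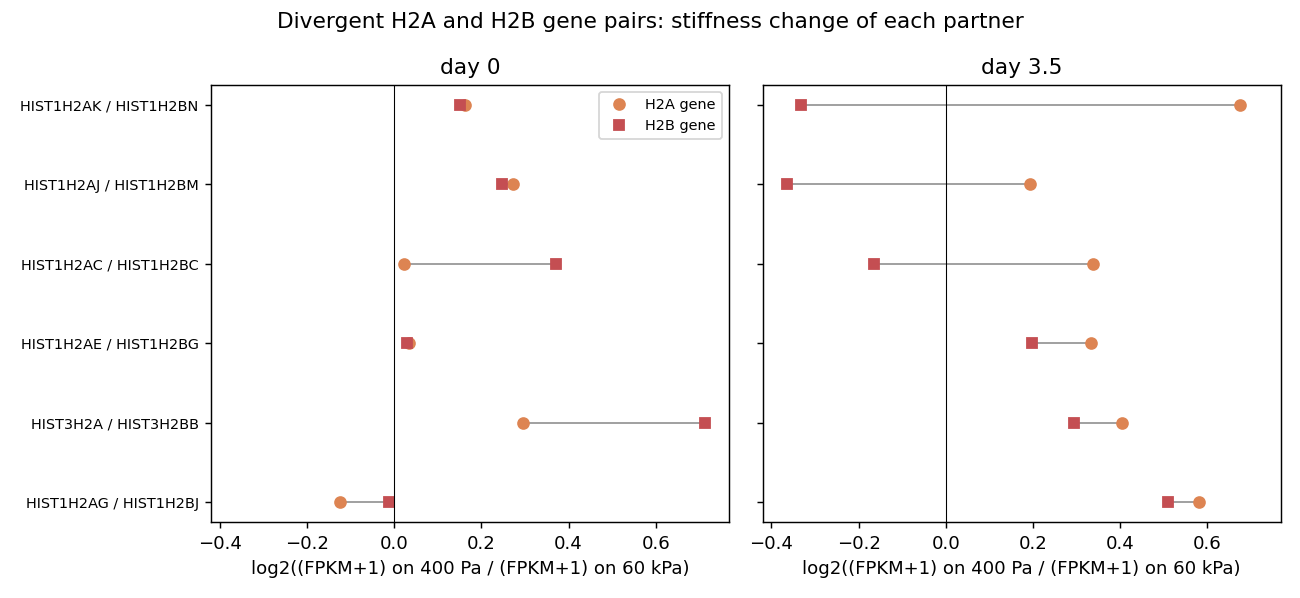
Stiffness difference, log2((FPKM + 1) on 400 Pa / (FPKM + 1) on 60 kPa), of the H2A gene (circle) and H2B gene (square) of 6 head-to-head pairs at day 0 and day 3.5. At day 3.5 each circle lies right of its square, and in 3 pairs the square lies left of 0.

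Levels at day 3.5 were next set beside those at day 0 on each gel. The authors made the tables of the 2 days separately, so these values have no test. The median log2((FPKM + 1) at day 3.5 / (FPKM + 1) at day 0) of 54 replication-dependent genes was 0.11 on soft and -0.02 on stiff gels, beside 0 and 0.01 over all genes. Of these genes 3 stood 2-fold or more higher at day 3.5 on each gel, and 5 on soft and 3 on stiff gels stood 2-fold or more lower. Either way, 15.0% of all genes on soft and 10.3% on stiff gels passed 2-fold. The shifts of single genes were alike on both gels, with Pearson's r of 0.89 and a lower Spearman's rho of 0.69 across the 54 genes, which share libraries. Neither was computed over all genes, so they cannot be read as particular to histone genes.

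The same 3 genes were higher on both gels. HIST1H4F stood at 18.8 FPKM at day 0 and 111 at day 3.5 on soft gels, and at 11.5 and 60.4 on stiff gels. HIST1H3I stood at 15.2 and 77.2 on soft and 10.4 and 40.0 on stiff gels. HIST1H4L stood at 38.4 and 157.5 on soft and 25.2 and 77.1 on stiff gels. All 3 were low at day 0 for replication-dependent genes. Among those lower at day 3.5, HIST1H2BB stood at 32.5 and 2.30 on soft and 26.1 and 4.81 on stiff gels. HIST1H3C stood at 15.8 and 3.03 on soft and 15.8 and 2.24 on stiff gels, and HIST1H1T at 6.42 and 2.27 on soft gels. HIST1H1A, a linker histone gene, stood at 10.1 and 4.59 on soft gels. The HIST1H3C row shares its interval with HIST1H1C.

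Shifts spanned a narrower range among abundant genes. Among the 30 replication-dependent genes at a mean of 200 FPKM or more at day 0, a value chosen after the data were seen, the shift ran from -1.43 to 0.94 on soft gels and from -0.67 to 0.81 on stiff gels. Among the 24 lower genes it ran from -3.35 to 2.50 on soft and from -2.37 to 2.30 on stiff gels. HIST1H2BH and HIST1H2BM were the 2 abundant genes beyond 2-fold, both lower at day 3.5 on soft gels. HIST1H1D, a linker histone gene, was highest of the abundant genes, with 507 at day 0 and 973 at day 3.5 on soft gels, and 501 and 878 on stiff gels. H2B had the lowest class median on both gels, -0.25 on soft and -0.21 on stiff.

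**Figure D4:**
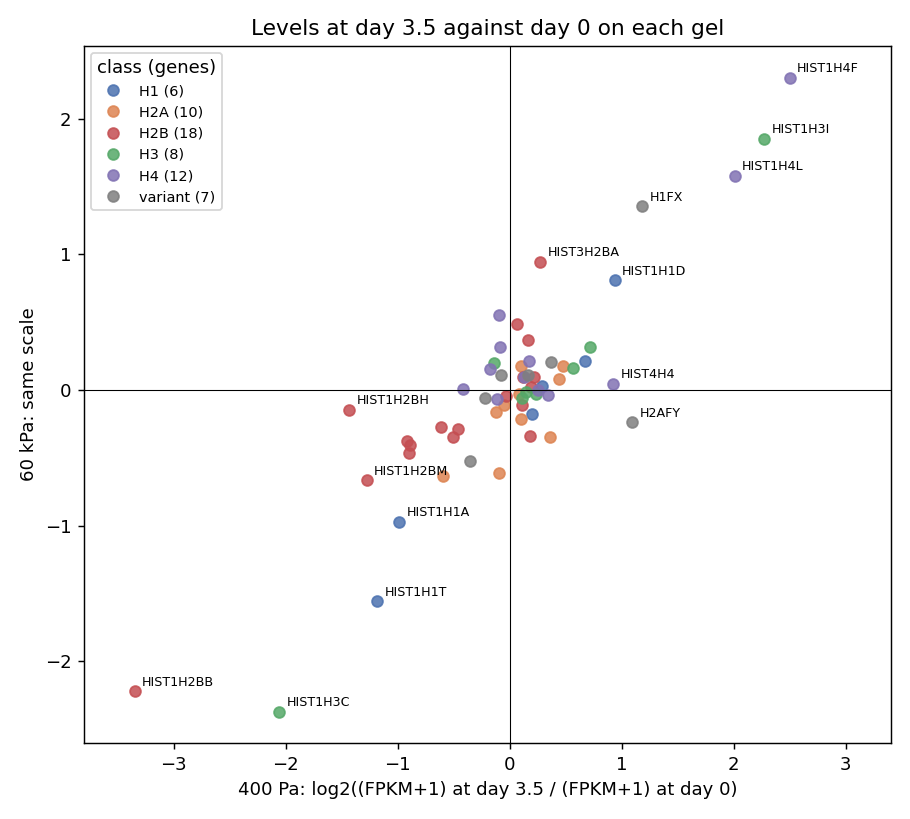
log2((FPKM + 1) at day 3.5 / (FPKM + 1) at day 0) of each histone gene on 400 Pa (horizontal axis) and 60 kPa (vertical axis), coloured by class, for genes at 1 FPKM or more in any group. HIST1H4F, HIST1H3I and HIST1H4L lie at the upper right, and HIST1H2BB and HIST1H3C at the lower left.

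Among the variant genes no member passed the authors' test on either day. Their median soft-to-stiff difference was 0.04 at day 0 (5 of 7 higher on soft) and 0.07 at day 3.5 (6 of 7). H2AFY, which encodes the large variant macroH2A1, was farthest from 0 on both days and in opposite directions. It had 42.3 FPKM on soft and 54.2 on stiff gels at day 0 (difference -0.35), and 91.4 and 45.9 at day 3.5 (difference 0.98, p = 0.0192, q = 0.521 in the authors' deposited table). Its difference between days was 1.35 with an error of 0.75 from the authors' deposited values (adjusted p = 0.999979, Benjamini-Hochberg). H1FX, a linker histone variant, had 25.2 and 22.1 at day 0 and 58.4 and 58.1 at day 3.5, so it stood 2.27-fold higher at day 3.5 on soft and 2.56-fold higher on stiff gels. The merged row of GCAT and H1F0, where H1F0 encodes linker histone H1.0, had 39.5 and 43.8 at day 0 and 128 and 117 at day 3.5.

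The remaining variants had close values on both gels. H2AFZ had 627 and 651 at day 0 and 491 and 452 at day 3.5. H2AFV, a second H2A.Z gene, had 112 on both gels at day 0 and 126 and 121 at day 3.5. H2AFX, whose protein is phosphorylated at DNA breaks, had 31.9 and 27.2, then 30.1 and 29.6. The H3.3 genes were listed far apart in level, with H3F3B at 595 and 572, then 768 and 660, and H3F3A at 7.87 and 7.62, then 6.61 and 7.27. The level of H3F3A is uncertain, as it shares 28.8% of its 50-base stretches with other genes.

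As poly-A status is not given, members known to make polyadenylated mRNA besides the stem-loop form were looked at apart. For these 8 genes, among them HIST1H1C, HIST1H2BD, HIST1H2BK and HIST2H2BE, the median soft-to-stiff difference was 0.03 at day 0 (6 of 8 higher on soft) and 0.33 at day 3.5 (7 of 8). Their FPKM ran from 75.2 to 1221 at day 0 and from 80.3 to 1893 at day 3.5. HIST1H2BD had 1048 and 1044 at day 0 and 1027 and 1014 at day 3.5. Their levels lay within the range of the other members, which is so wide that this does not bear on poly-A status.

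Genes that supply or handle histones were taken from a list of 37, of which 36 were tested on each day. At day 0 their median difference was 0.06 with 24 of 36 higher on soft, and at day 3.5 it was -0.04 with 15 of 36. The 14 S-phase genes had medians of 0.16 at day 0 (10 higher on soft) and -0.03 at day 3.5 (6 higher on soft). Whether the share of cells in S phase bears on the histone values was not tested. PCNA, the sliding clamp of DNA polymerase, had 236 and 247 at day 0 and 193 and 178 at day 3.5. CCNA2, the S-phase cyclin, had 115 and 116, then 89.9 and 85.1, and CCNE1 had 29.7 and 28.5, then 22.5 and 18.2. None of the 14 passed the authors' test.

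Among the 11 genes of histone transcription and mRNA 3′ end formation, the median was 0.08 at day 0 and -0.06 at day 3.5. SLBP, which binds the stem-loop, had 39.8 and 41.0 at day 0 and 52.4 and 34.8 at day 3.5, a difference of 0.58 with an implied error of 0.51 from the authors' deposited table. NPAT, the activator of replication-dependent histone genes, had 16.8 and 15.1, then 13.8 and 16.3. The 11 chaperones had medians of 0.01 and 0.02. NASP, an H1 and H3-H4 chaperone, had 102 and 105, then 73.2 and 86.9. CHAF1A, a subunit of the assembly factor that follows the replication fork, had 46.2 and 32.4, then 23.4 and 26.8, and ASF1B had 13.0 and 12.9, then 18.7 and 16.3. SSRP1, a subunit of the FACT chaperone, was the 1 gene of the list that passed the authors' test, with 69.3 on soft and 642 on stiff gels at day 0 (q = 0.0390 in the authors' deposited table) and 65.6 and 62.4 at day 3.5. Only its stiff value at day 0 stood apart, and no values per library are given to check it. SUPT16H, the other FACT subunit on the list, had 69.3 and 66.5 at day 0.

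At the minimum of 1 FPKM, HIST2H3DP1 (1.19 and 0.773) and HIST1H2BA (1.20 and 0.593) were the members just inside at day 0, and HIST2H4B (0.511 and 0.572) and HIST2H2BA (0.498 and 0.187) just outside. At day 3.5 HIST2H3DP1 (0.986 and 1.04) was just inside, and HIST2H2BA (0.933 on soft, listed at 0 on stiff) and HIST3H3 (0.148 and 0.523) just outside. The soft value alone let 2 members pass at day 0 (HIST2H3DP1 and HIST1H2BA). The stiff value alone let 1 pass at day 3.5 (HIST2H3DP1).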

How the data were processed

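RNA from 8 libraries, 2 in each of 4 groups, was sequenced. The authors deposited 1 table per day with 1 FPKM per gene and group, made with Cufflinks on hg19 per the submitters' processing notes; for filters, annotation and version, nothing is stated in the sources used. The same deposited tables give a log2 ratio (stiff over soft), a test statistic, which is a score, and a p-value and q-value per row. These tests come from the authors and were taken over unchanged; q was recomputed as Benjamini-Hochberg and differed by less than 1e-06. Depth is unknown, so no counting interval can be given. Per symbol the row with the highest mean was used (HIST1H1C had 2). Differences are log2 with a pseudocount of 1, computed with Python 3.11.15 and pandas 2.3.3, and genes needed 1 FPKM in a group. Implied standard errors are the deposited log2 ratio divided by the statistic. They are approximate and too large for the deposited p-values, which are smaller than a normal reading of the statistics gives. The difference between days was tested by a normal approximation on these errors and checked on simulated data. The genes named are the variants, per day the 8 highest, the 5 largest differences each way and the 3 lowest p, members at the minimum, and 9 supply genes; others were named after their values were seen. The members and lists were chosen with earlier results of these data known. Alternatives were other pseudocounts, minimums, centrings, row choices and thresholds. Locus coordinates are hg19, 1-based; promoters are RefSeq GRCh38.p14, and no coordinate was converted.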

Additional observations from a re-analysis of the deposited data

How the results depend on the processing

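At an unadjusted p below 0.05 in place of the adjusted one, the number of members called was 1 at day 0 and 6 at day 3.5 by the authors' deposited p-values, and 1 for the difference between days. The other 83 values computed under an alternative kept their direction and stayed within the limits set for them. The median soft-to-stiff difference of the replication-dependent genes ran from 0.14 to 0.17 at day 0 and from 0.24 to 0.29 at day 3.5. The number higher on soft ran from 42 to 50 and from 40 to 46, with the number of genes tested changing too. Leaving out annotated pseudogenes, asking for 1 FPKM in both groups, and leaving out members that share most 50-base stretches with another gene were alternatives chosen after seeing the data. No paired analysis was possible because the tables hold 1 value per group. Leaving out each replicate in turn was not run for the same reason. With no values per library, the spread within groups rests on the authors' test alone.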
